A study of Mus musculus with 24 samples.

Results

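The 3 genes Zfp36, Zfp36l1 and Zfp36l2 encode the members of the mouse ZFP36 family of messenger RNA decay factors described here. They were taken by symbol from a deposited table of 15390 genes, and all 3 passed the filter on low values that left 13272 genes for testing. The table holds 24 libraries of MC38 cells, an established mouse colon carcinoma line, made with a kit that reads one tag near the 3′ end of each polyadenylated message. Control cells carried control guide RNA 1 or 2, and Ado KO cells carried guide RNA 1 or 2 against Ado, the gene of the thiol dioxygenase called cysteamine dioxygenase. Each of these 4 guide populations was left untreated, given TNF (TNF-alpha) for 1 h, or given TNF for 6 h. That makes 6 groups of 4 libraries, with 2 libraries for each guide and treatment. The labels give no clone, passage or dose, and do not say whether the 2 libraries came from separate cultures. The p-values therefore reflect only how much such libraries differ, which could be technical spread. No untreated library was labelled for 6 h, so TNF and time in culture cannot be told apart in the 6 h comparisons.

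ZFP36 (tristetraprolin), ZFP36L1 and ZFP36L2 bind AU-rich elements in the 3′ untranslated regions of short-lived messages through paired CCCH zinc fingers. They recruit the CCR4-NOT deadenylase and the decapping enzymes, so that the bound message loses its poly(A) tail and is degraded. Tnf messenger RNA is the classic target of ZFP36, which is itself made in response to TNF, and the p38 kinase with its downstream kinase MK2 phosphorylates ZFP36, lets 14-3-3 proteins bind it and restrains its activity. The assay read messages only; it did not measure protein, phosphorylation, or the separate rates at which a message is made and destroyed.

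In the GENCODE annotation of GRCm38 all 3 are protein-coding genes of the minus strand. Zfp36 (ENSMUSG00000044786.6) spans chr7:28376784-28380253, Zfp36l1 (ENSMUSG00000021127.7) spans chr12:80107754-80113013 and Zfp36l2 (ENSMUSG00000045817.8) spans chr17:84183931-84187947. Each is overlapped on the plus strand by 1 annotated non-coding transcript, Gm44710, Gm26669 and AC132455.1 respectively. Whether the authors' counting used strand is not given in the sources used here. Tags of these transcripts that fall within a member therefore cannot be told apart from its own. As annotated, Gm44710 ends at 28392514 and AC132455.1 at 84216056, outside Zfp36 and Zfp36l2. Gm26669 ends at 80113000, within Zfp36l1.

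The members' own 3′ untranslated regions carry the element that the family binds, which is why 1 site of each is shown. In the longest annotated region of each gene (774 bases for Zfp36, 1835 for Zfp36l1, 1822 for Zfp36l2), a search of the transcribed strand found the nonamer TTATTTATT 1 time and the heptamer TATTTAT, which lies inside the nonamer, 3 times. The nonamer was present in 8.55% (916 of 10719) of the tested genes with an annotated 3′ untranslated region, and the heptamer in 31.3%. The nonamer is in capitals in these 25-base stretches of GRCm38, read on the minus strand.
Zfp36, chr7:28376953-28376977: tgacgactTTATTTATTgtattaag
Zfp36l1, chr12:80108169-80108193: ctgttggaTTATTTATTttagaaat
Zfp36l2, chr17:84184916-84184940: tatttaacTTATTTATTatcttgtg
The 9 bases are identical because the search matched them exactly, and the 3 flanks differ. A match describes the letters in the annotation and is no measurement of binding.

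Start-site sequences are shown because TNF and serum act on early response genes through NF-kB, serum response factor and AP-1. RefSeq windows (GRCm38.p6) of the 250 bases before the start were matched by symbol for 2 members, Zfp36 and Zfp36l1; none is shown for Zfp36l2. Both strands were searched for the NF-kB decamer, the CArG box of serum response factor, TGANTCA (AP-1), GCGNGGGCG (EGR), TTCNNNGAA (STAT) and, for the TATA box, TATAAA. The window of Zfp36 held a CArG box 58 bases before the start, an EGR match 105 bases before it and a STAT match 17 bases before it. This window lies within annotated exon of a longer GENCODE transcript of Zfp36, so only 30 bases around each match are shown, with the match in capitals.
Zfp36 CArG box, chr7:28379267-28379296: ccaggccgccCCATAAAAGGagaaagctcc
Zfp36 EGR match, chr7:28379314-28379343: gagctacgccGCGGGGGCGcgtcccggaag
Zfp36 STAT match, chr7:28379229-28379258: gccacagcctgacTTCTGCGAAccgacagt
The window of Zfp36l1 lies wholly before its annotated gene. It held an AP-1 match 129 bases before the start and a TATA box 29 bases before it, both in capitals.
Zfp36l1, chr12:80113014-80113263: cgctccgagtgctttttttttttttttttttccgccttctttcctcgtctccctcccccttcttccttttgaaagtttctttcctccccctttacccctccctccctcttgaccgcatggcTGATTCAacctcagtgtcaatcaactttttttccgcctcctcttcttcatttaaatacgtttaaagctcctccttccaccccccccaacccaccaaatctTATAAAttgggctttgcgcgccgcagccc
Among all 32851 RefSeq windows of this length, a CArG box was found in 1.47%, an EGR match in 4.7%, a STAT match in 7.02%, an AP-1 match in 6.75% and a TATA box in 12.4%. The letters of the NF-kB decamer, found in 7.25% of windows, were in neither of these windows. GC content was 64.8% for Zfp36 and 48.4% for Zfp36l1, and the families of matches did not coincide between the genes.

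Values are those deposited, read as log2 CPM from the values themselves. CPM is the count of a gene scaled to a common library total, and the libraries share a common distribution. Library depth was estimated from the steps between low values at 4260000 to 6630000 tags. Ado itself, read at its 3′ end, was higher by 0.09 on the log2 scale in untreated Ado KO cells than in control cells (95% CI -0.13 to 0.31), which is no check of editing in its coding sequence. As to cell identity, of 9 epithelial markers Epcam, Krt19, Krt20, Vil1, Cdx2 and Muc2 were not among the 15390 genes with values. The other 3, of which only Krt8 passed the filter, summed to between 0.294 and 3.37 CPM. Of 9 mesenchymal markers Col1a1, Col1a2 and Lum had no values either, and the other 6 summed to between 1320 and 1740 CPM in every group. Of 10 immune markers 6 had values, which summed to between 7.09 and 31.7 CPM, and 4 of these passed the filter. The share of small non-coding RNA genes was 0.653% to 0.897% in all untreated and 1 h libraries, 2.81% to 4.24% in control cells at 6 h and 1.96% to 2.26% in Ado KO cells at 6 h; its part in the 6 h results was not tested.

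Zfp36, the gene of tristetraprolin, was the member that moved most after TNF. It was 5.57-fold higher at 1 h than untreated in control cells and 5.99-fold in Ado KO cells, and had fallen part of the way back by 6 h. In bulk libraries such as these, more responding cells and more message per cell cannot be told apart. In untreated control cells its log2 CPM was 2.32 and 2.25 with guide 1 and 1.81 and 1.86 with guide 2. After TNF for 1 h it was 4.56 and 3.92 with guide 1 and 4.72 and 4.95 with guide 2. After 6 h it was 3.30 and 3.32 with guide 1 and 3.58 and 3.73 with guide 2. The 3 treatments did not overlap: every 6 h library lay above every untreated one and below every 1 h one. The group means were 2.06 ± 0.27, 4.54 ± 0.44 and 3.48 ± 0.21 (SD, n = 4). In Ado KO cells the untreated libraries read 1.66 and 2.06 with guide 1 and 2.05 and 1.51 with guide 2. The 1 h libraries read 4.83 and 4.12 with guide 1 and 4.11 and 4.55 with guide 2, and the 6 h libraries 3.55 and 3.26 with guide 1 and 3.79 and 3.12 with guide 2. Again the 3 treatments were separate, with means of 1.82 ± 0.28, 4.40 ± 0.35 and 3.43 ± 0.30 (SD, n = 4).

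**Figure D1:**
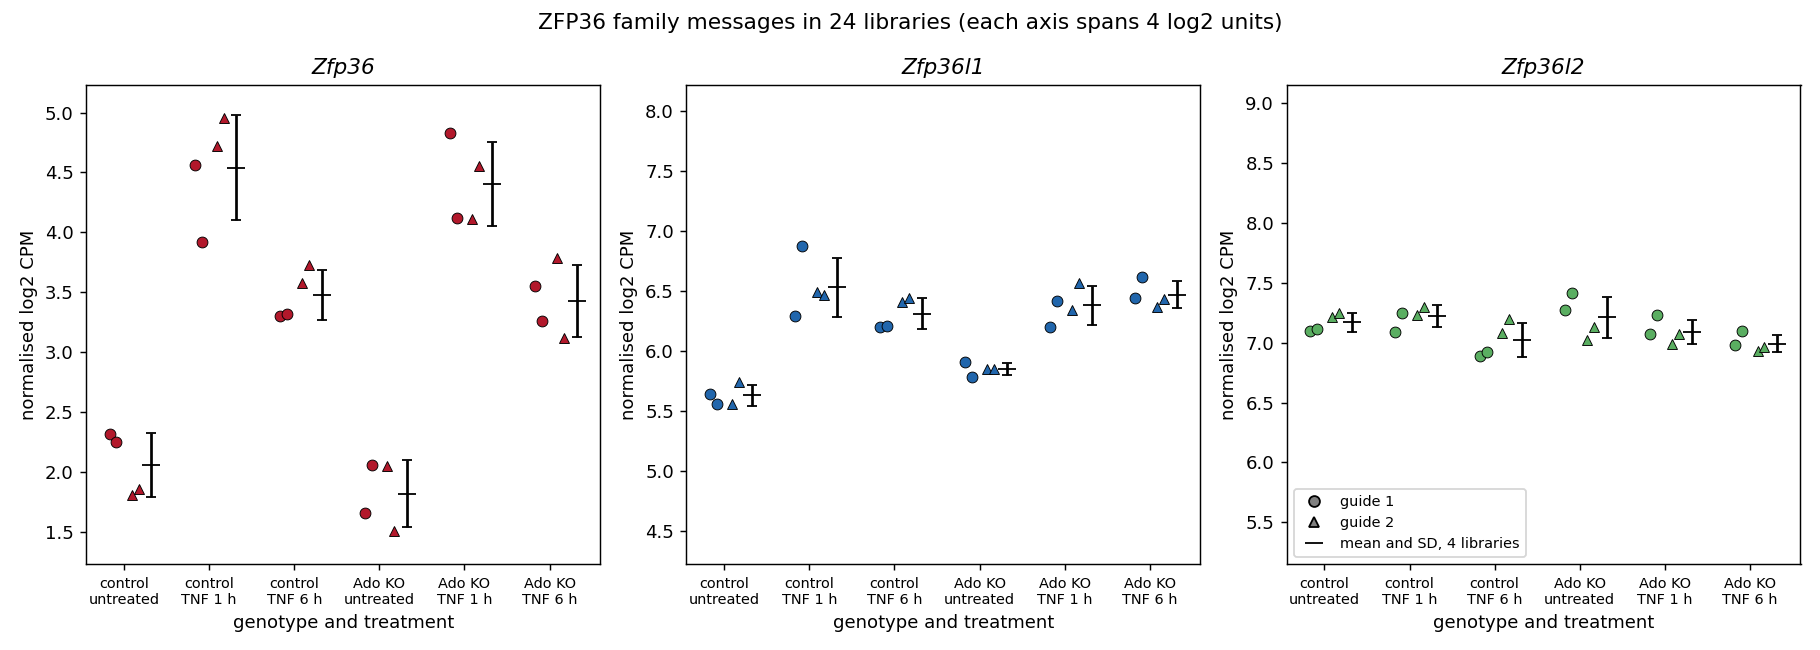
Normalised log2 CPM of Zfp36, Zfp36l1 and Zfp36l2 in the 24 libraries, by genotype and treatment; circles are guide 1, triangles guide 2, and the bar gives the mean and SD of 4 libraries. Zfp36 forms 3 separate levels (untreated, 6 h, 1 h) in both genotypes, Zfp36l1 forms 2 levels (untreated against both TNF times), and the libraries of Zfp36l2 lie between 6.89 and 7.41 throughout.

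The change of Zfp36 was tested with limma across all genes kept, with Benjamini-Hochberg adjustment and a threshold of 0.05. At 1 h the log2 fold change was 2.48 in control cells (SE 0.21, 95% CI 2.05 to 2.90, adjusted p = 8.18e-10). The Ado KO value was 2.58 (95% CI 2.16 to 3.01, adjusted p = 2.92e-10). Few genes passed this test as higher at 1 h, 0.332% of those tested in control cells and 0.241% in Ado KO cells, and groups free of overlap in the higher direction were found for 3.16% and 2.11%. At 6 h Zfp36 was still higher than untreated, by 1.42 in control cells (adjusted p = 5.80e-06) and by 1.61 in Ado KO cells (adjusted p = 9.50e-07), or 2.68-fold and 3.05-fold. By then 7.74% of genes had passed as higher and 10.3% as lower in control cells, and 4.42% and 2.02% in Ado KO cells, with 8.64% and 6.69% of genes free of overlap in the higher direction. With libraries scaled to a housekeeping list the split of calls at 6 h moved from 1027 higher of 2392 to 994 of 1510 in control cells and from 587 of 855 to 693 of 793 in Ado KO cells, and Zfp36 stayed called. The fall between 1 h and 6 h was itself called, -1.05 in control cells (95% CI -1.48 to -0.63, adjusted p = 6.36e-04) and -0.97 in Ado KO cells (95% CI -1.40 to -0.55, adjusted p = 0.00223). That fall was shared with 2.86% and 3.72% of genes by the test, and with 5.17% and 7.88% by the absence of overlap. At 6 h 57.5% of the 1 h log2 rise was left in control cells and 62.3% in Ado KO cells. The call on the fall was lost without control guide 2 (-0.93) and without Ado guide 1 (-0.87), which leave 2 libraries a group.

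Zfp36 was read by few tags, which limits its precision. The step-wise spacing of low values puts it at 17 to 23 tags in untreated control libraries, 80 to 179 at 1 h and 40 to 68 at 6 h. Ado KO libraries held 13 to 21, 75 to 163 and 47 to 66 tags. Counting alone gives an SD of 0.32 and 0.34 on the log2 scale at the untreated means, against observed SDs of 0.27 and 0.28. The spread of untreated Zfp36 is therefore no wider than its counting error, while the 1 h spread (0.44 and 0.35) exceeds the counting SD of 0.13 and 0.14. These figures cover counting error only, since tags without molecular identifiers are not independent molecules.

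Zfp36l1, which encodes the family member also called BRF1 and acts in lymphoid and vascular development, rose less and was higher than untreated at both times. Its log2 CPM in untreated control cells was 5.64 and 5.56 with guide 1 and 5.56 and 5.74 with guide 2. At 1 h it was 6.29 and 6.88 with guide 1 and 6.49 and 6.47 with guide 2, and at 6 h it was 6.20 and 6.21 with guide 1 and 6.41 and 6.44 with guide 2. Every TNF library lay above every untreated one, and the 1 h and 6 h libraries overlapped. The means were 5.63 ± 0.09, 6.53 ± 0.25 and 6.31 ± 0.13 (SD, n = 4). Untreated Ado KO cells read 5.91 and 5.78 with guide 1 and 5.85 and 5.85 with guide 2. The 1 h libraries read 6.20 and 6.42 with guide 1 and 6.34 and 6.57 with guide 2, and the 6 h libraries 6.44 and 6.62 with guide 1 and 6.37 and 6.43 with guide 2. The pattern of 2 levels held here too, with means of 5.85 ± 0.05, 6.38 ± 0.16 and 6.47 ± 0.11 (SD, n = 4).

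For Zfp36l1 limma gave a 1 h log2 fold change of 0.91 in control cells (SE 0.10, 95% CI 0.70 to 1.11, adjusted p = 2.85e-07), or 1.88-fold. The Ado KO value was 0.53 (95% CI 0.33 to 0.74, adjusted p = 0.00430), or 1.45-fold. With 2 libraries a group the Ado KO call was lost, at 0.60 without Ado guide 1 and at 0.46 without Ado guide 2. At 6 h the changes were 0.69 in control cells (adjusted p = 4.55e-06) and 0.62 in Ado KO cells (adjusted p = 3.88e-05), or 1.61-fold and 1.54-fold. Between 1 h and 6 h no change was called: -0.22 in control cells (95% CI -0.42 to -0.02, adjusted p = 0.198) and 0.08 in Ado KO cells (95% CI -0.12 to 0.29, adjusted p = 0.693). The share of the 1 h log2 rise present at 6 h was 75.8% in control cells and 115.9% in Ado KO cells.

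Zfp36l2, the member also called BRF2 and needed in blood stem cells and oocytes, had no called change at either time. In untreated control cells it read 7.10 and 7.11 with guide 1 and 7.21 and 7.25 with guide 2. At 1 h it read 7.09 and 7.25 with guide 1 and 7.23 and 7.30 with guide 2, and at 6 h 6.89 and 6.92 with guide 1 and 7.08 and 7.20 with guide 2. The 3 treatments overlapped, with means of 7.17 ± 0.08, 7.22 ± 0.09 and 7.02 ± 0.14 (SD, n = 4). Ado KO cells read 7.27 and 7.41 with guide 1 and 7.02 and 7.13 with guide 2 when untreated. They read 7.07 and 7.23 with guide 1 and 6.99 and 7.07 with guide 2 at 1 h, and 6.98 and 7.10 with guide 1 and 6.93 and 6.96 with guide 2 at 6 h. These also overlapped, with means of 7.21 ± 0.17, 7.09 ± 0.10 and 6.99 ± 0.07 (SD, n = 4).

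The limits on a change of Zfp36l2 were narrow. At 1 h limma gave 0.05 in control cells (95% CI -0.11 to 0.21, adjusted p = 0.813) and -0.11 in Ado KO cells (95% CI -0.27 to 0.05, adjusted p = 0.806). At 6 h it gave -0.15 in control cells (95% CI -0.31 to 0.01, adjusted p = 0.203) and -0.21 in Ado KO cells (95% CI -0.37 to -0.05, adjusted p = 0.113). All 4 guide populations had a lower mean at 6 h than untreated, by -0.10 to -0.30, and the Ado KO difference passed the threshold in the same direction with guide populations as fixed terms (-0.21). Between 1 h and 6 h the values were -0.20 in control cells (adjusted p = 0.131) and -0.10 in Ado KO cells (adjusted p = 0.516).

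The order of the 6 groups differed by member. For Zfp36 it ran from control at 1 h (4.54) and Ado KO at 1 h (4.40) through control and Ado KO at 6 h (3.48 and 3.43) to control and Ado KO untreated (2.06 and 1.82). Within each of these 3 pairs the genotypes overlapped, and between the pairs they did not. For Zfp36l1 the 4 TNF groups overlapped between 6.31 and 6.53, above untreated Ado KO (5.85) and untreated control (5.63). For Zfp36l2 neighbours in the order overlapped all the way from 7.22 (control at 1 h) to 6.99 (Ado KO at 6 h).

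**Figure D2:**
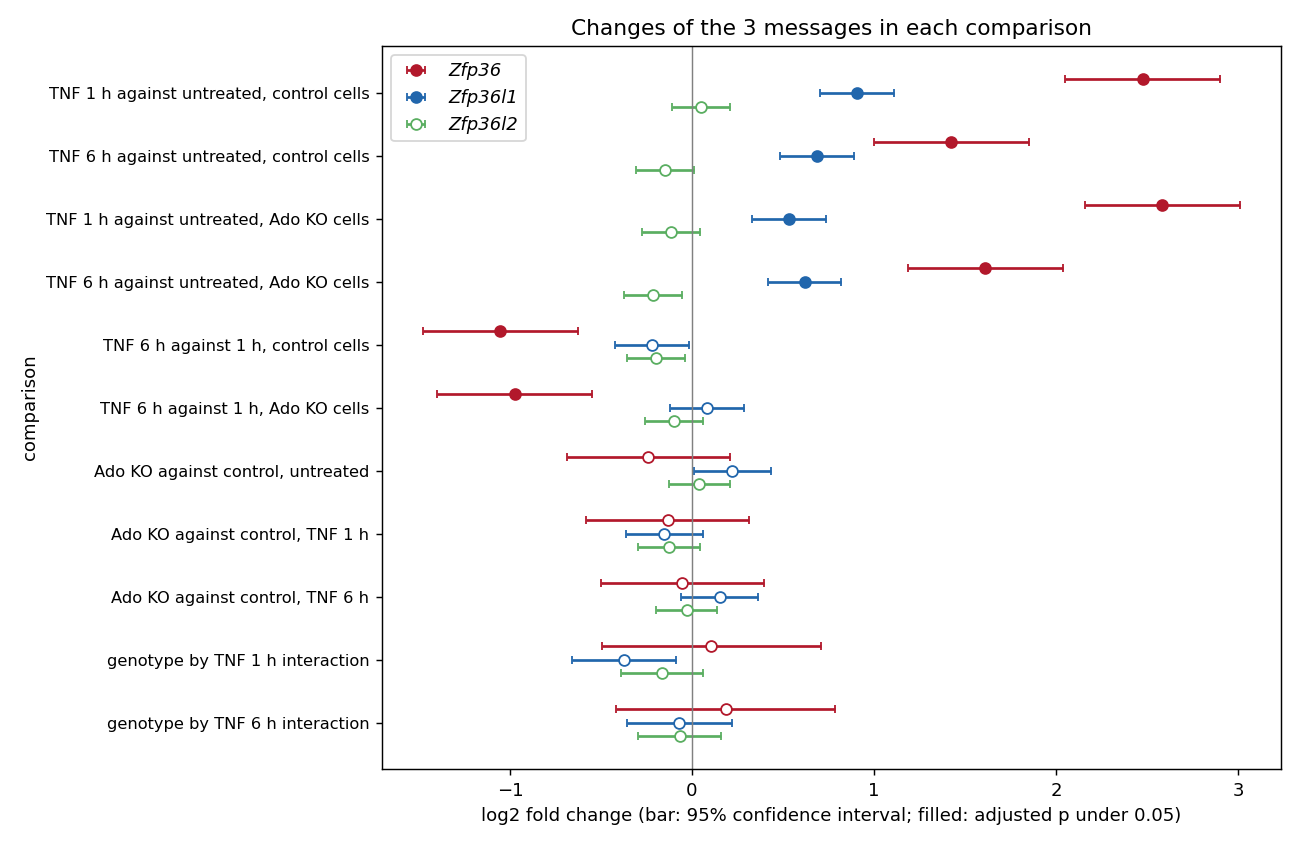
Log2 fold change (x axis) of each member in the 11 comparisons of treatment and genotype (y axis), from limma; bars are 95% confidence intervals and filled points have an adjusted p under 0.05. Filled points are those of Zfp36 and Zfp36l1 after TNF and of Zfp36 between 1 h and 6 h; no member has a filled point in a genotype comparison or an interaction.

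The members' responses were compared within each library, where a single scaling factor cancels. Treatment labels were permuted inside guide populations (exact two-sided test, 1296 arrangements, Benjamini-Hochberg over 9 tests). Putting libraries on a common distribution can shift genes of unlike level by unlike amounts, which does not cancel. The pairs were not tested with the genes normalised again. The log2 difference of Zfp36 minus Zfp36l1 ran from -4.34 to -3.30 in the 8 untreated libraries, from -2.96 to -1.37 at 1 h and from -3.37 to -2.58 at 6 h. These values set no level of one gene against another, and only their change between treatments is used. Zfp36 rose by 1.81 more than Zfp36l1 at 1 h (exact p = 0.00154, the smallest the design allows, adjusted 0.00198), in 4 of 4 populations. At 6 h it was still 0.86 ahead (exact p = 0.00154, adjusted 0.00198). Between 1 h and 6 h it moved by -0.95 relative to Zfp36l1 (exact p = 0.00463, adjusted 0.00521), downward in 4 of 4 populations. Zfp36 and Zfp36l1 thus differed in the size of the rise and in the fall after it.

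Against Zfp36l2, Zfp36 gained 2.56 at 1 h and 1.7 at 6 h and lost 0.86 between the times, each with an exact p of 0.00154 (adjusted 0.00198). The direction was the same in all 4 populations for each. Zfp36l1 gained 0.75 on Zfp36l2 at 1 h and 0.83 at 6 h (exact p = 0.00154, adjusted 0.00198 for both), also in 4 of 4 populations. Between 1 h and 6 h the difference of Zfp36l1 from Zfp36l2 moved by 0.08 (exact p = 0.248, adjusted 0.248), upward in 3 of 4 populations, from -0.12 to 0.34. Without replicate 2 of control guide 1 at 1 h, in which Zfp36l1 read 6.88, that difference was 0.135 and passed the threshold.

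**Figure D3:**
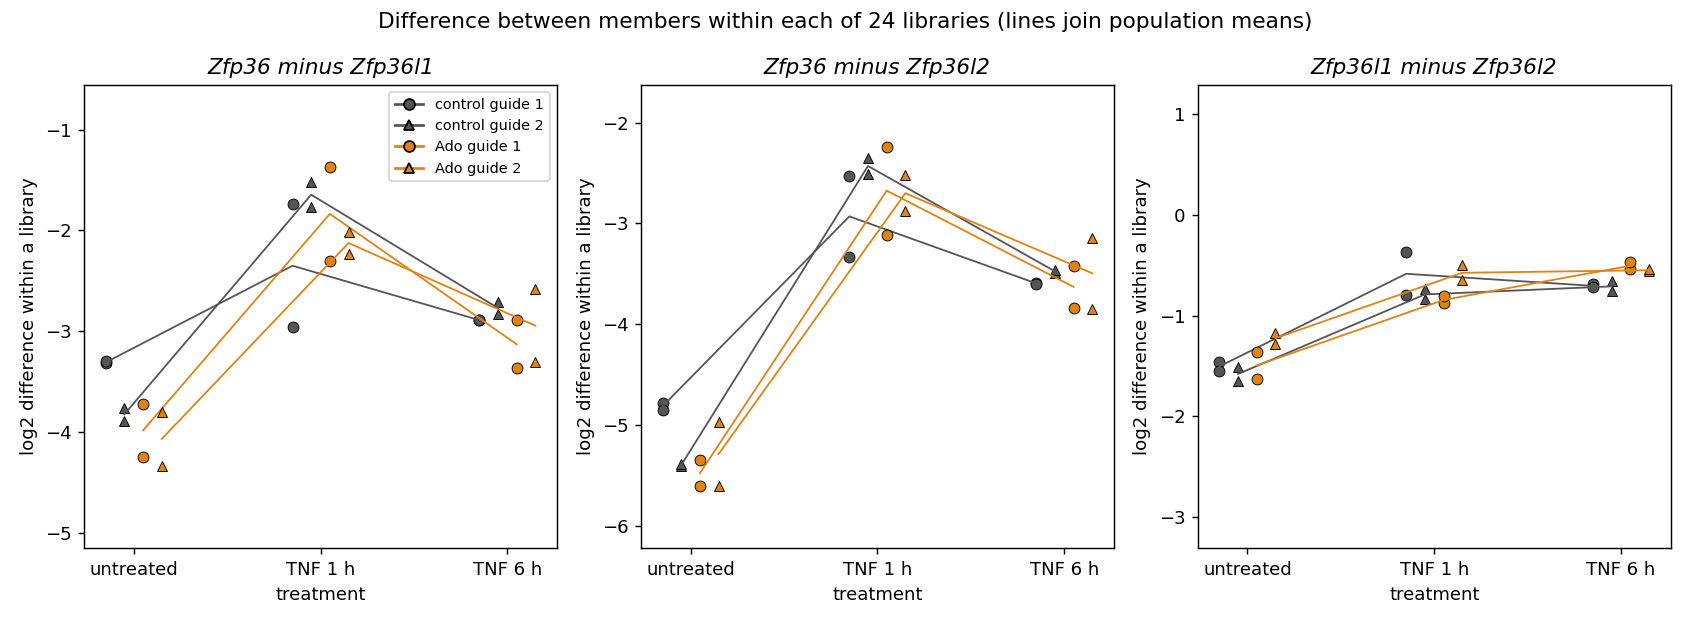
Log2 difference between 2 members within a library (y axis), for the 3 pairs, by treatment (x axis); each point is 1 of 24 libraries, grey for control and orange for Ado KO, and lines join the means of a guide population. Both differences that involve Zfp36 rise to 1 h and come part of the way back by 6 h in all 4 populations, while Zfp36l1 minus Zfp36l2 rises to 1 h and stays within -0.88 to -0.37 at both TNF times.

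No member had a called difference between Ado KO and control cells. In untreated cells the Ado KO minus control difference was -0.24 for Zfp36 (95% CI -0.69 to 0.21), 0.22 for Zfp36l1 (95% CI 0.01 to 0.43) and 0.04 for Zfp36l2 (95% CI -0.13 to 0.21). Zfp36l1 was higher in all 4 untreated Ado KO libraries (5.78 to 5.91) than in any untreated control library (5.56 to 5.74). Such a lack of overlap in the higher direction was found for 2.83% of genes, and with limma the adjusted p was 0.538 where 0.249% of genes were called. At 1 h the differences were -0.13 for Zfp36 (95% CI -0.58 to 0.31), -0.15 for Zfp36l1 (95% CI -0.36 to 0.06) and -0.13 for Zfp36l2 (95% CI -0.29 to 0.04), with 1.06% of genes called. At 6 h they were -0.05 (95% CI -0.50 to 0.39), 0.15 (95% CI -0.06 to 0.36) and -0.03 (95% CI -0.20 to 0.14), with 1.02% called. Of these 9 tests 0 passed limma's adjusted threshold, and 1, that of untreated Zfp36l1, was under 0.05 before adjustment. With libraries scaled to a housekeeping list the median of all genes in these 3 comparisons moved by 0.104 to 0.218, and all 3 members at 1 h, and Zfp36 and Zfp36l2 at 6 h, changed sign. The calls over all genes moved from 9 higher of 33 to 17 of 20 (untreated), from 70 of 141 to 1632 of 1656 (1 h) and from 56 of 135 to 350 of 396 (6 h).

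The genotype difference in the TNF response was tested as an interaction. At 1 h the response of Zfp36l1 was smaller in Ado KO cells by -0.37 (SE 0.14, 95% CI -0.66 to -0.09, limma adjusted p = 0.441 over all genes). The same term was 0.11 for Zfp36 (95% CI -0.50 to 0.71) and -0.17 for Zfp36l2 (95% CI -0.39 to 0.06). At this time limma called 0 of 13272 genes (0%), while 1304 genes (9.83%) had an unadjusted p under 0.05. At 6 h the terms were 0.19 for Zfp36 (95% CI -0.42 to 0.79), -0.07 for Zfp36l1 (95% CI -0.36 to 0.22) and -0.07 for Zfp36l2 (95% CI -0.29 to 0.16), and 0.347% of genes were called. With the named protein-coding genes normalised again, limma called 0 of 10354 genes in the 6 h interaction in place of 46, with an unadjusted p under 0.05 for 558 in place of 893. Between genotypes at 6 h it then called 38 genes, 24 of them higher, in place of 135 with 56 higher. The control library with the highest Zfp36l1 value, replicate 2 of guide 1 at 1 h, and the untreated difference between genotypes both enter the 1 h term of Zfp36l1. Over single libraries left out that term ran from -0.453 to -0.253 and was never called.

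In all 4 guide populations Zfp36 and Zfp36l1 had higher means at both TNF times than untreated; differences in size between populations were not tested. Zfp36 rose at 1 h by 1.95 with control guide 1, by 3.00 with control guide 2, by 2.62 with Ado guide 1 and by 2.55 with Ado guide 2. At 6 h the rises were 1.02, 1.83, 1.55 and 1.67 in the same order, with the lowest value in control guide 1 at both times. Zfp36l1 rose at 1 h by 0.99 and 0.83 with the control guides and by 0.46 and 0.60 with the Ado guides. The 1 h difference of Zfp36l2 was 0.07 and 0.03 with the control guides and -0.19 and -0.04 with the Ado guides. Averaged over treatments, guide 2 differed from guide 1 by 0.16 for Zfp36, 0.06 for Zfp36l1 and 0.15 for Zfp36l2 in control cells, where limma called 4.61% of genes. In Ado KO cells the differences were -0.06, 0.01 and -0.16, where it called 0.158%. None of these 6 passed; the nearest were Zfp36l2 in control cells (95% CI 0.04 to 0.26, adjusted p = 0.0958 by limma) and in Ado KO cells (95% CI -0.27 to -0.05, adjusted p = 0.344), which had opposite signs and unadjusted limma p-values of 0.00767 and 0.00568.

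Likeness was described by Pearson's r over the 12 means of guide population and treatment. The means share libraries and depth, and no test is attached. Only named genes were ranked: symbols with the pattern of gene models or clones, such as Gm and Rik, were left out. Closest to Zfp36 were Tnfaip3, which encodes the NF-kB inhibitor A20 (r = 0.955), the transcription factors Irf1 (0.946) and Jun (0.94), the immediate-early gene Ier3 (0.937) and the chemokine gene Cxcl1 (0.929). Closest to Zfp36l1 were Junb (0.962), Irf1 (0.957), Jun (0.951), Tnfaip3 (0.95) and Cxcl1 (0.947). The 5 genes nearest to each of these members had higher means at 1 h than untreated and a lower mean at 6 h than at 1 h. Zfp36 and Zfp36l1 correlated with each other at 0.869, and with Zfp36l2 at -0.135 and -0.261. Nearest to Zfp36l2 were the chromatin protein gene Hp1bp3 (0.916), Itm2c (0.905), the ubiquitin-conjugating enzyme gene Ube2r2 (0.887), the myelin protein gene Pmp22 (0.88) and Trim35 (0.879), whose means were highest untreated and lowest at 6 h.

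Upstream of the family, a list of NF-kB and serum response regulators had 20 genes tested. Like the members and the other lists, it was chosen with earlier results of these data known, so its counts are description only. At 1 h in control cells 4 were called higher and 0 lower, led by Nfkbia, which encodes the NF-kB inhibitor IκBα (3.10), Junb of the AP-1 family (2.38) and Egr1, an early zinc finger factor (0.94). Of the same list 3 were higher in Ado KO cells: Nfkbia (3.13), Junb (2.18) and Egr1 (1.03). At 6 h 9 were higher in control cells (Nfkbia 2.99, Junb 2.17, Egr1 1.91) and 8 in Ado KO cells (Nfkbia 3.08, Junb 1.88 and the NF-kB subunit Relb 1.80). Klf2, an anti-inflammatory zinc finger factor, fell in Ado KO cells (-0.73). The list medians were 0.12, 0.09, 0.25 and 0.25 for 1 h control, 1 h Ado KO, 6 h control and 6 h Ado KO, beside medians of all genes of -0.03, -0.002, -0.09 and -0.05. In the same order limma called 0.332%, 0.241%, 7.74% and 4.42% of all genes higher. It called 10.3% lower in control cells and 2.02% lower in Ado KO cells at 6 h.

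The kinases, phosphatases and 14-3-3 proteins that act on ZFP36 numbered 22 tested genes. At 1 h, when limma called 52 of all 13272 genes in control cells and 34 in Ado KO cells, 1 of the 22 was called. This was Dusp1, the phosphatase that inactivates p38, at 1.60 in control cells (adjusted p = 1.99e-04) and 2.07 in Ado KO cells (adjusted p = 1.57e-06). By 6 h Dusp1 was at 0.04 and 0.50 and no longer called; like Zfp36 it fell between the times, by -1.56 and -1.57. At 6 h in control cells 2 were higher, the p38 kinase kinase Map2k3 (0.41) and the 14-3-3 gene Ywhag (0.21), and 3 lower, Map2k6 (-1.64), the 14-3-3 gene Ywhaz (-0.26) and the ERK gene Mapk3 (-0.25). In Ado KO cells 2 were higher, Ywhag (0.35) and Map2k3 (0.27), and 1 lower, Map2k6 (-1.75), where 4.42% of all genes were called higher and 2.02% lower. The control count of 5 of 22 stands beside 7.74% of all genes higher and 10.3% lower, a like share. Map2k3 and Map2k6, which both activate p38, moved in opposite directions. The medians, -0.02, 0.01, -0.09 and -0.04 in the order above, lay beside those of all genes. The control count of 5 at 6 h was 1 without control guide 1, 2 without control guide 2, and 2 to 3 without single libraries (replicate 1 of guide 1 untreated, replicate 2 of guide 1 or replicate 1 of guide 2 at 6 h). In Ado KO cells the 3 calls at 6 h were 1 without Ado guide 1, replicate 1 of that guide untreated or its replicate 2 at 6 h, and the 1 call at 1 h was 0 without Ado guide 2.

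Beside the members, 17 other proteins of AU-rich and stem-loop elements were tested. At 1 h limma called 0 of them in either genotype, with an unadjusted p under 0.05 for 5 in control cells and 1 in Ado KO cells. Of all 13272 genes it called 52 in control and 34 in Ado KO cells at 1 h, with an unadjusted p under 0.05 for 1876 and 963. At 6 h it called 2392 and 855 of all genes. At 6 h in control cells the roquin gene Rc3h2 rose (0.55, adjusted p = 0.0126) and Khsrp, which promotes decay, fell (-0.22, adjusted p = 0.0442), while in Ado KO cells N4bp1, a ribonuclease gene, rose (0.44, adjusted p = 0.0256). Zc3h12a, the gene of the endonuclease Regnase-1, read 1.16 and 0.93 at 1 h with SEs of 0.40 (adjusted p = 0.182 and 0.609). Of the whole list of 20, Zfp36 and Zfp36l1 were the 2 called at 1 h in both genotypes, and 1 was called in Ado KO cells when either Ado guide was left out. The 4 calls of the whole list in control cells at 6 h were 2 without replicate 1 of guide 1, whether untreated or at 6 h.

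Of the machinery that the family recruits, 21 genes of CCR4-NOT and other deadenylation were tested. Btg2, an adaptor that stimulates the deadenylase, was the 1 of them called at 1 h, at 2.28 in control and 2.50 in Ado KO cells; over all 13272 genes 52 and 34 were called in either direction. At 6 h Btg2 was at 2.80 and 2.69, the poly(A)-binding protein gene Pabpc4 at 0.31 and 0.37, and Tob1, a related adaptor of the deadenylase, at -0.79 and -1.10. Btg2 did not come down between 1 h and 6 h (0.52 in control cells, adjusted p = 0.264; 0.19 in Ado KO cells, adjusted p = 0.747), whereas Zfp36 did; that difference between the genes was not tested. Of 20 decapping genes 0 passed limma at 1 h in either genotype, with unadjusted p under 0.05 for 7 in control cells and 0 in Ado KO cells. The unadjusted limma p was under 0.05 for 1876 of all 13272 genes in control cells and 963 in Ado KO cells. At 6 h Lsm14b (-0.49) and Lsm2 (-0.37) fell in control cells. Of 16 exosome genes Mphosph6 rose at 6 h, by 0.34 in both genotypes. For these 3 lists the calls in control cells at 6 h were 3 of 21, 2 of 20 and 1 of 16, beside 2392 of 13272 genes in all, and in Ado KO cells 3 of 21, 0 of 20 and 1 of 16, beside 855 of 13272. These small counts changed when libraries were left out: at 6 h deadenylation had 1 call without control guide 1, Ado guide 2 or replicate 1 of untreated control guide 2, and the exosome had 0 without control guide 2, Ado guide 1 or Ado guide 2 and 2 without replicate 1 of control guide 2 at 6 h. Decapping had 0 calls without control guide 1, and 1 without replicate 1 of control guide 1 (untreated or at 6 h) or replicate 2 of untreated control guide 2.

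Messages that textbooks name as AU-rich targets were tested for 32 of 40 genes; Tnf, Csf2, Il6, Il1b, Il10, Il23a, Cxcl2 and Cxcl3 were not among them. Of the 32, 15 (46.9%) held the nonamer in an annotated 3′ untranslated region and 24 (75.0%) the heptamer. At 1 h in control cells 6 were called higher and 0 lower: Cxcl1 (5.57), Tnfaip3 (4.20), Ccl2, a monocyte chemokine gene (2.25), Ier3 (1.75), Dusp1 (1.60) and Csf1 (0.78). In Ado KO cells 6 were higher, led by Cxcl1 (4.74), Tnfaip3 (3.82) and Dusp1 (2.07), and 3 without Ado guide 2. At 6 h 16 were higher in control cells, led by the cytokine gene Lif (4.78), Cxcl1 (4.13) and Ccl2 (4.00), and 14 in Ado KO cells, led by Lif (4.86), Ccl2 (4.02) and Cxcl1 (3.73). None of the 32 was called lower at either time. Of all genes limma called 0.332% higher at 1 h in control cells and 0.241% in Ado KO cells. At 6 h it called 7.74% higher and 10.3% lower in control cells, and 4.42% and 2.02% in Ado KO cells. The medians were 0.34 and 0.12 at 1 h and 0.83 and 0.68 at 6 h, beside all-gene medians of -0.03, -0.002, -0.09 and -0.05; the list was drawn up with TNF responses of these cells known.

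Between 1 h and 6 h target messages were called in both directions. In control cells 10 of 32 rose further, led by Lif (2.94), the plasminogen activator gene Plau (2.49) and Ccl2 (1.75), and 3 fell, Dusp1 (-1.56), Cxcl1 (-1.44) and the receptor gene Notch1 (-1.08). The Ado KO cells had 14 rising and 2 falling, Dusp1 (-1.57) and Ier3 (-0.42). Over all 13272 genes 640 were called higher and 379 lower in control cells, and 537 and 494 in Ado KO cells. Cxcl1 fell by -1.01 there without passing (adjusted p = 0.109). No gene of the 7 lists, members included, was called between genotypes. Of the 147 list genes other than the members, limma called 0 in untreated, 1 h and 6 h cells. The unadjusted limma p was under 0.05 for 12, 24 and 13 of them. In the 2 interactions 0 of the 147 were called, with 15 and 8 under 0.05 before adjustment. Few of all 13272 genes were called either: 33, 141 and 135, with unadjusted limma p under 0.05 for 1166, 2094 and 1512. In the interactions 0 and 46 were called, with 1304 and 893. The absence of calls is therefore not particular to the lists.

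**Figure D4:**
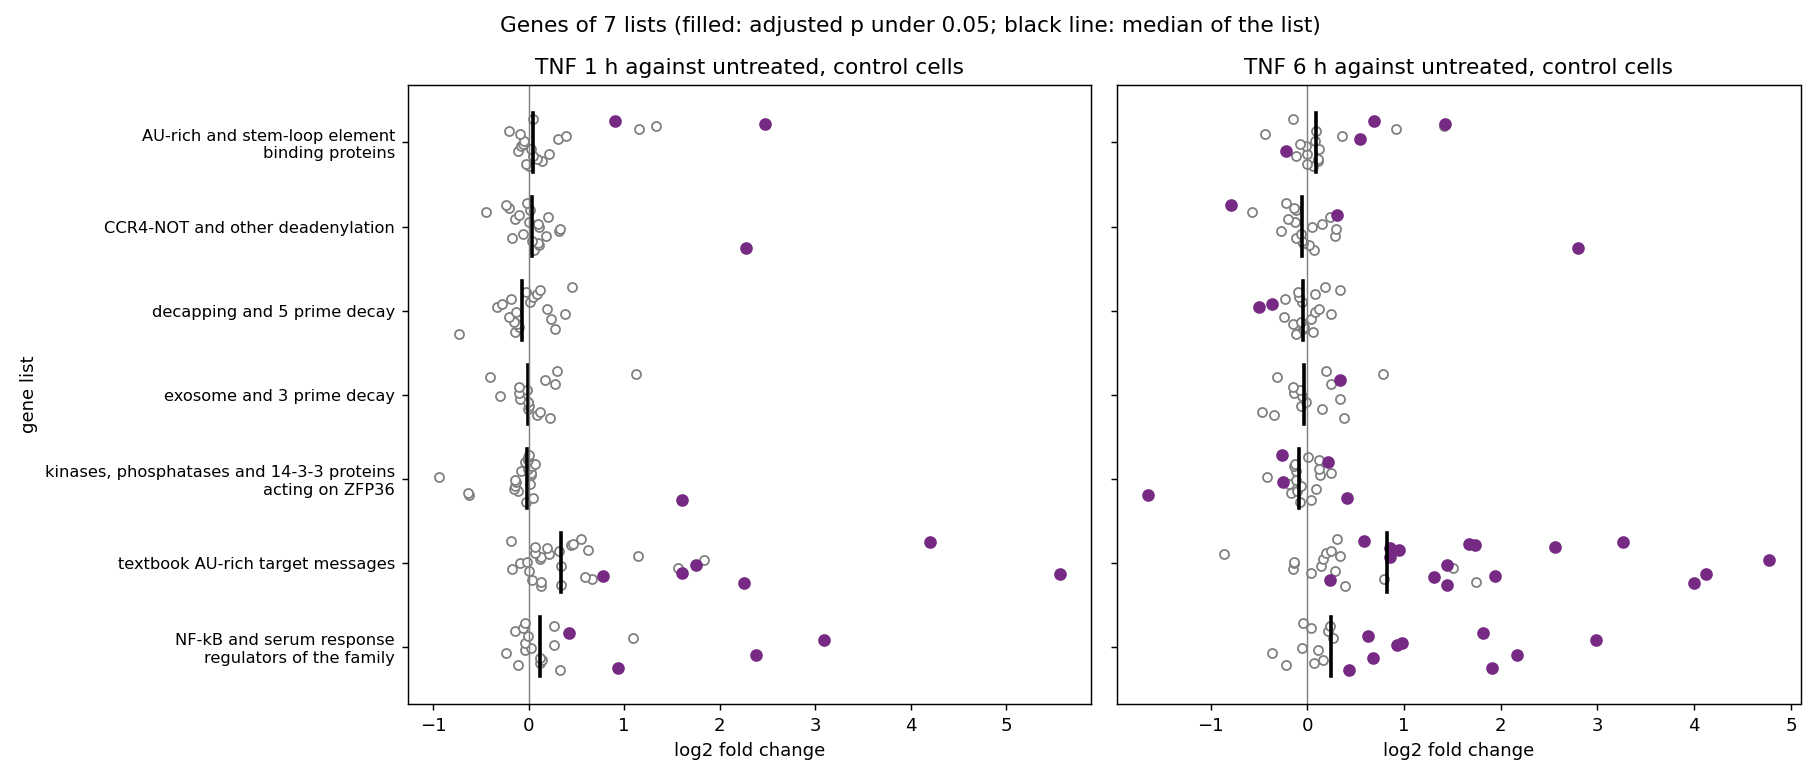
Log2 fold change (x axis) of every tested gene of the 7 lists (y axis) after TNF for 1 h and 6 h in control cells; filled points have an adjusted p under 0.05 from limma, and the black line is the list's median. The target list has 6 filled points at 1 h and 16 at 6 h, all to the right of 0, and in the deadenylation list Btg2 is filled at 2.28 and 2.80.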

How the data were processed

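The authors deposited 1 table of log2 CPM values for all 24 libraries, per the file headers and the labels. Per the submitters' processing notes, the tools named are FastQC, cutadapt 1.7, HISAT2, Subread featureCounts and limma, with builds GRCm38 and mm10; options and strand setting are not given in the sources used here. The lowest value is the same in every library (-3.349) and unlogged columns sum to between 998900 and 999014. The values were therefore read as log2 CPM put on a common distribution, on which a change of total RNA cannot be seen. QuantSeq libraries carry 1 tag per message, so values were not divided by length.

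Genes at 0 or more in at least 4 libraries were kept (13272 of 15390). limma 3.58.1 (statmod 1.5.0, R 4.3.3) fitted 6 group means with guide population as a random block (correlation 0.0485) and a variance trend, with Benjamini-Hochberg adjustment over all genes kept and a threshold of 0.05. For the 2 guides of a genotype, the fit had 12 means, 1 for each guide and treatment. Members were compared within libraries by exact permutation. Tags were estimated from a value's place among a library's distinct values. The code was tested on simulated data. Within a guide population, same-numbered libraries of different treatments did not deviate together (correlations -0.158 to 0.054), so replicate numbers were not used as pairs. Numbers follow the sample titles; for control guide 2 at 1 h the column names number the 2 libraries the other way round.

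The text names the 3 members in full, up to 3 called genes of each list with the largest change and any that moved against them. It also names the 5 genes most like each member, gene models and clones left out. Csf1, Ier3, Zc3h12a and Cxcl1 between 1 h and 6 h were named after their values were seen. The members and lists were chosen with earlier results of these data known. Alternatives were the block, filter, pseudocount, scaling, groups in the fit, and each library or guide population left out.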

Additional observations from a re-analysis of the deposited data

How the results depend on the processing

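The settings tried left most results where they were: of the alternatives for members and pairs, 875 kept direction and call, 30 changed sign, 3 gained a call and 4 lost one, and of those for list counts 499 stayed within 1.5 times and 33 did not. With the replicate block the 1 h change of Zfp36 in control cells was 2.48, and no call on a member changed; replicate numbers pair nothing in the labels. Calls lost when a guide population was left out were Zfp36l1 at 1 h in Ado KO cells (0.604 without Ado guide 1, 0.464 without Ado guide 2) and the fall of Zfp36 between 1 h and 6 h (-0.928 without control guide 2 in control cells, -0.874 without Ado guide 1 in Ado KO cells); these fits hold 2 libraries in the group concerned. The 6 h change of Zfp36l2 in Ado KO cells passed with fixed guide terms (-0.215) and ran from -0.273 to -0.151 over single libraries left out, passing without replicate 1 of untreated Ado guide 2.

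All values that changed sign were uncalled in the reported fits. Housekeeping scaling, which moved the median of all genes by up to 0.218, gave Zfp36l2 at 1 h in Ado KO cells 0.0293, the Ado KO minus control differences at 1 h 0.0841 (Zfp36), 0.066 (Zfp36l1) and 0.0924 (Zfp36l2), and at 6 h 0.106 (Zfp36) and 0.131 (Zfp36l2). Without control guide 1 the untreated genotype difference of Zfp36l2 was -0.0247 and the interactions of Zfp36 were -0.421 (1 h) and -0.215 (6 h). Without control guide 2 the genotype differences of Zfp36 were 0.164 (1 h) and 0.12 (6 h), that of Zfp36l2 at 6 h was 0.0866 and the 6 h interaction of Zfp36l1 was 0.0163. Without Ado guide 1 the change of Zfp36l1 between 1 h and 6 h in Ado KO cells was -0.0537, the untreated genotype difference of Zfp36l2 was -0.0936, its 6 h interaction was 0.0207, and Zfp36l1 minus Zfp36l2 between 1 h and 6 h was -0.00482. Without Ado guide 2 the genotype difference of Zfp36l2 at 6 h was 0.0157. Guide differences in 1 treatment alone changed sign for Zfp36 (-0.456 untreated, control; 0.0512 at 6 h, Ado) and Zfp36l1 (-0.109 at 1 h, control; -0.13 at 6 h, Ado). Over single libraries left out the ranges were -0.0242 to 0.0977 (Zfp36l2, genotype, untreated), -0.339 to 0.00187 (Zfp36, genotype, 1 h), -0.18 to 0.0516 (Zfp36, genotype, 6 h), -0.0683 to 0.0256 (Zfp36l2, genotype, 6 h), -0.0994 to 0.242 (Zfp36, 1 h interaction) and 0.0277 to 0.135 (Zfp36l1 minus Zfp36l2 between the TNF times). The cause was not tested. With the stricter filter of 3 or more, Btg2 was not tested and deadenylation had 0 calls at 1 h and 1 at 6 h in both genotypes; with fixed guide terms decapping had 4 calls at 6 h in control cells and the kinase list 5 in Ado KO cells, and with housekeeping scaling these lists had 1 and 2 calls in control cells. Depth limits Zfp36 most, at 13 to 23 tags in untreated libraries.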
